A study of Rattus norvegicus with 68 samples.

Results

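Blood transcripts of 4 rats given 1500 mg/kg acetaminophen were set against those of 4 rats given 150 mg/kg, all killed 24 h after dosing. The rats were taken by their labels for dose and time, which gave 8 of the 34 rats of the series and 16 of its 68 arrays. All were F344/N rats, an inbred strain, male and 10 to 12 weeks old. Acetaminophen (APAP) was suspended in ethyl cellulose at 0.5% and gavaged orally, with each dose split into 2 parts. The rats of 1500 mg/kg were numbered 3623, 3624, 3625 and 3626, and those of 150 mg/kg 3617, 3618, 3619 and 3620. The labels name no altered gene and no second agent. RNA of each rat was hybridised on 2 dual-colour oligonucleotide arrays of opposite dye orientation against 1 vehicle-treated control RNA, a pool of blood RNA from 6 rats by the design description. The 2 groups share that pool, so it cancels from their difference. Only ratios to the pool were analysed, so the blood label could not be set against the levels of blood cell markers.

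Acetaminophen is an analgesic that the liver mostly conjugates and excretes, and a part of it is oxidised to a reactive quinone imine that glutathione captures. At high doses glutathione runs low and liver cells die, and neutrophils leave the bone marrow for the blood and the injured liver. Blood RNA comes from neutrophils, monocytes, lymphocytes, platelets and reticulocytes, the young red cells that still hold transcripts. In such a bulk sample, fewer cells of a type and less RNA per cell cannot be told apart.

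At 24 h, 207 of 9653 genes (2.14%) differed between 1500 and 150 mg/kg at a limma adjusted p under 0.05, 61 of them higher (0.632%) and 146 lower (1.51%) after 1500 mg/kg. Genes of neutrophils led the higher ones, and the lower ones held red cell, glutathione peroxidase, sialic acid and nuclear transport genes. A value below is the log2 ratio of a rat to the pool, averaged over its 2 arrays and over the probes of a gene, and a difference is the mean of 1500 minus the mean of 150 mg/kg on that scale, with its standard error (SE). The ratio was taken as Cy5 over Cy3, which is likely but is not stated with the values, and the opposite direction would turn every sign. All 61 higher genes had a mean above the pool after 1500 mg/kg, and all 146 lower genes had one below it. Over single probes, named or not, 281 of 22075 (1.27%) passed, 80 higher (0.362%) and 201 lower (0.911%). In 201 of the 207 the 150 mg/kg mean lay within 0.25 of the pool. Against the pool itself, 780 genes (8.08%) passed after 1500 mg/kg and 0 after 150 mg/kg, where 316 had an unadjusted p under 0.05 in limma. The pool's own spread is outside those 2 tests.

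Of the 207 genes, 179 had no overlap between the 4 and the 4 rats, 51 higher and 128 lower. Over all 9653 genes the rats did not overlap in 217 (2.25%) that were higher and 387 (4.01%) that were lower. The difference was at least 1, a doubling, in 24 of the higher genes and at most -1 in 29 of the lower ones. All 207 kept their sign when the arrays with the treated rat in Cy5 and those with it in Cy3 were taken alone. The plot by dye orientation shows them, and they were called on the mean of both orientations. Of the 39 called genes with over 1 probe, 29 had probes of 1 sign. The variance of each gene was estimated from all 34 rats, and with the 12 rats of 24 h alone 51 genes passed, 6 higher and 45 lower, all among the 207. The count of higher genes was 116 without rat 3624 of 1500 mg/kg, that of lower genes was 227 without rat 3625 and 95 without rat 3623, and without rat 3631 of the 2500 mg/kg group 96 were higher and 221 lower, 317 in all.

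**Figure D1:**
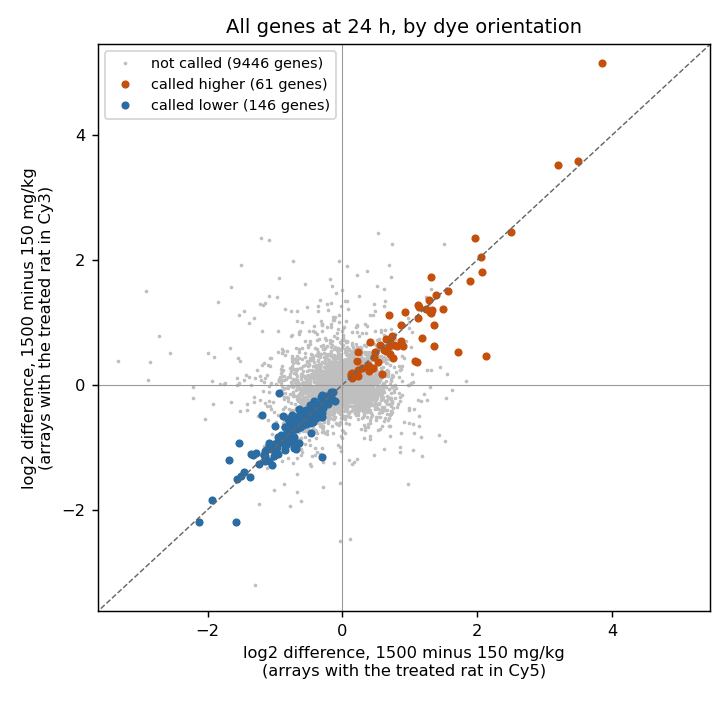
Difference in log2 ratio between 1500 and 150 mg/kg at 24 h for each of 9653 genes, from the arrays with the treated rat in Cy5 (horizontal axis) and from those with it in Cy3 (vertical axis). The dashed line marks equal values, and the 61 higher genes (orange) and 146 lower genes (blue) have the same sign on both axes.

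Among the leading genes that rose, Mmp8, Tf and Anxa1 had a motif of the C/EBP family of transcription factors, to which the product of Cebpd belongs, in the window around their start. RefSeq windows of GRCr8, 250 bases before to 50 after the start of the gene, were matched for 17 of the 24 leading genes, 8 higher and 9 lower. S100a8, Il1r2, Slpi, Cebpd, Kpna1, Selenbp1 and Enpp1 had no entry. The motif TTGCNNAA, searched on both strands, lay in the windows of Mmp8, Tf and Anxa1 and in 0 of the 9 windows of lower genes. These 3 windows are shown because they hold it, with its letters in capitals. They are those of Mmp8 (chr8:13008640-13008939, plus strand, 2 matches), Tf (chr8:112695327-112695626, minus strand, 1 match) and Anxa1 (chr1:227303683-227303982, minus strand, 1 match), each written 5′ to 3′ on the gene's strand.
Mmp8: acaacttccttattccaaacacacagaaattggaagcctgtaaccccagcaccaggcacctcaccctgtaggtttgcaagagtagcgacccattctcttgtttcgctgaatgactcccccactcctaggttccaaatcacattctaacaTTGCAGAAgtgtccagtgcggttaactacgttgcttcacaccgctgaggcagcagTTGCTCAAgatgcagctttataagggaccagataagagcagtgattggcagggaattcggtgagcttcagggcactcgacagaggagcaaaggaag
Tf: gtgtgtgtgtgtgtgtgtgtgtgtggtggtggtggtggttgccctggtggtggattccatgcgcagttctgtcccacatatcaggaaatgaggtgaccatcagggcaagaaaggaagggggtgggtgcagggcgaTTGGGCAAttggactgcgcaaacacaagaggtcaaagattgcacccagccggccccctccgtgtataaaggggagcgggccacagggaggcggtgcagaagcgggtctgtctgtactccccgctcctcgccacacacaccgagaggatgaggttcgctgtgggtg
Anxa1: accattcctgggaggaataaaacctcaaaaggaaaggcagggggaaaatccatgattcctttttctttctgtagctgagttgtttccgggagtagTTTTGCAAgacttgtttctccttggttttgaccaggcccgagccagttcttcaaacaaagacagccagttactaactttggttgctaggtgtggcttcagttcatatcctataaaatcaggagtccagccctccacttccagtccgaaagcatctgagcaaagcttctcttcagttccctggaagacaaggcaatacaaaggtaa
The motif lay in 9 of 43 windows of all genes called higher (20.9%), in 11 of 121 of those called lower (9.09%), in 729 of 7934 windows of measured genes (9.19%) and in 10.5% of the 27457 windows in the table. The AGATAA motif, of the kind that GATA factors bind, lay in 16.3% of the windows of higher genes, 10.7% of those of lower genes and 7.06% of those of measured genes. The STAT type motif TTCNNNGAA lay in 11.6% of the windows of higher genes, 4.13% of those of lower genes and 7.08% of those of measured genes. A match says only that these letters are present in the window.

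Serpinb1a, S100a9 and S100a8, known from the cytoplasm of neutrophils, had the largest differences of all 9653 genes. Serpinb1a codes for an inhibitor of the elastase and related proteases of neutrophil granules. Its log2 ratios were 3.10, 2.72, 4.33 and 3.65 in the rats of 1500 mg/kg, against 0.09, -0.50, -2.10 and -1.73 in those of 150 mg/kg. All 4 rats of the higher dose were above all 4 of the lower one, and rats 3619 and 3620 of 150 mg/kg lay well below the pool. The difference was 4.51 (SE 0.50), or 22.8-fold (limma adjusted p = 2.91e-06), and its 2 probes gave 4.01 and 5.01. The group means were 3.45 ± 0.70 after 1500 mg/kg and -1.06 ± 1.03 after 150 mg/kg (SD, n = 4 rats each), so that the fold to 150 mg/kg exceeds the fold to the pool.

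S100a9 and S100a8 code for the 2 subunits of calprotectin, a protein that binds calcium and zinc and fills the neutrophil cytosol. S100a9 stood at 3.55, 2.17, 4.13 and 3.68 in 1500 mg/kg rats, against 0.16, 0.14, -0.57 and -0.34 in 150 mg/kg rats, without overlap (difference 3.54, SE 0.54; 11.6-fold; limma adjusted p = 0.000181). S100a8 stood at 2.81, 1.43, 3.84 and 3.31 in 1500 mg/kg rats, against 0.14, -1.09, -0.68 and -0.43 in 150 mg/kg rats (difference 3.36, SE 0.47; 10.3-fold). In both genes rat 3624 was the lowest of the 1500 mg/kg rats and rat 3625 the highest. That order ran through the whole set: rat 3624 was the lowest of its group in all 12 of the highest genes, and rat 3625 the highest in 10 of them. Over all 61 higher genes, 3624 was lowest in 43 and 3625 highest in 37, with medians over these genes of 0.525, 0.34, 1.24 and 0.988 in rats 3623 to 3626.

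The rest of the neutrophil genes that rose serve granules, adhesion and lipid mediators. Mmp8, the collagenase of neutrophil granules, stood at 1.62, 1.07, 2.72 and 2.46 in 1500 mg/kg rats, against -0.16, -0.16, -0.23 and -0.21 in 150 mg/kg rats. The means of the 150 mg/kg rats lay within a narrow band just under the pool. Their single arrays lay further apart, at -0.93 to -0.44 with the treated rat in Cy3 and 0.11 to 0.48 with it in Cy5. The difference was 2.16 (SE 0.29, 4.47-fold, limma adjusted p = 5.58e-05), with 1.96 on the Cy5 arrays and 2.35 on the Cy3 arrays. Alox5, the 5-lipoxygenase that starts leukotriene synthesis, stood at 0.85, 0.65, 1.99 and 1.57 in 1500 mg/kg rats, against 0.14, -0.24, -0.14 and -0.10 in 150 mg/kg rats. Its difference was 1.35 (SE 0.20; 2.55-fold), while Alox5ap, the membrane protein that presents arachidonic acid to it, differed by 0.24 (SE 0.05). Itgam, the alpha chain of the Mac-1 integrin that lets neutrophils and monocytes adhere, differed by 0.74 (SE 0.18). Itgam and Alox5ap did not both pass with the 12 rats of 24 h alone.

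Of 20 measured genes on the neutrophil list, 8 rose (40%) and 0 fell, with a median difference of 0.26, beside 0.0052 over all genes. The 8 were Serpinb1a, S100a9, S100a8, Mmp8, Il1r2, Alox5, Itgam and Alox5ap. The other 12 did not pass, and they included Lcn2 (-0.0019), Mmp9 (0.12) and Cxcr2 (0.08), genes of granule proteins and of a chemokine receptor. The list median was 0.19, 0.12, 0.39 and 0.19 in the 1500 mg/kg rats, against 0.0083, -0.092, -0.045 and -0.025 in the 150 mg/kg rats, again without overlap.

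**Figure D2:**
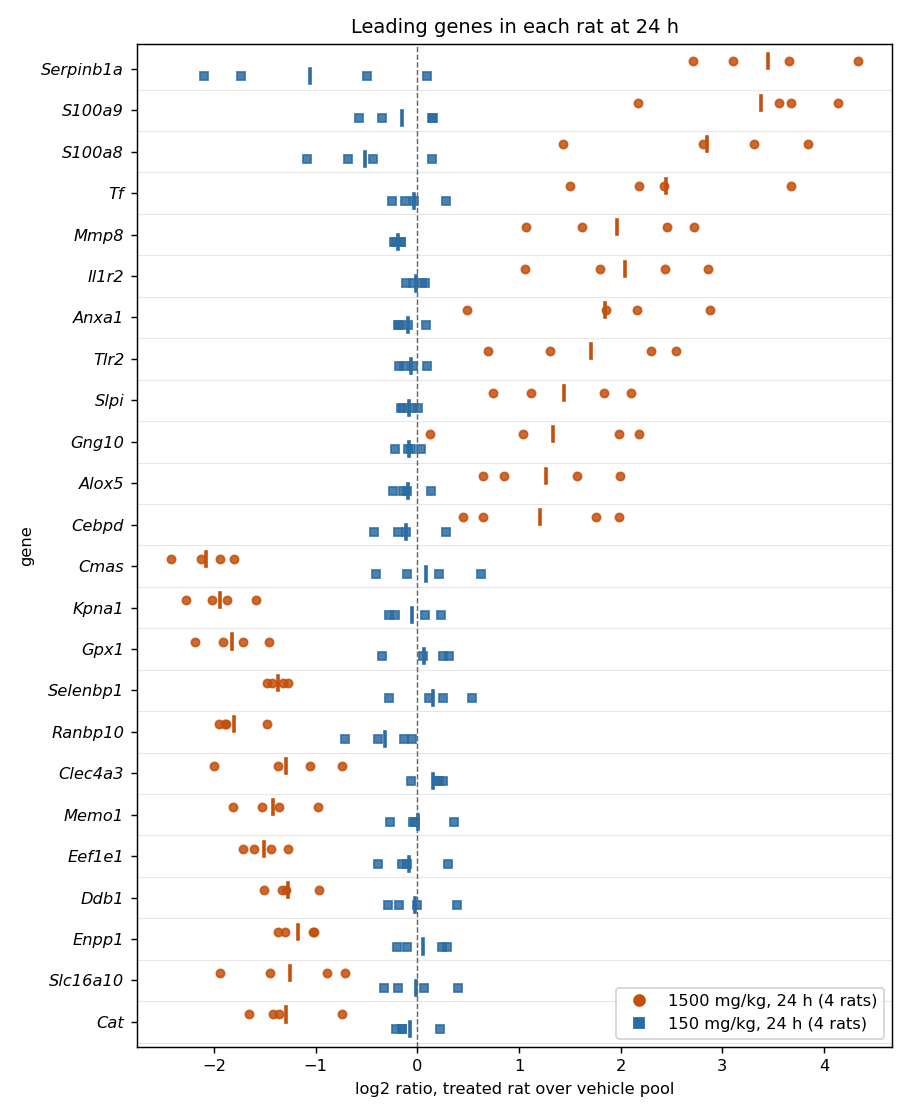
Log2 ratio to the vehicle pool (horizontal axis) in each rat for the 24 leading genes (vertical axis), with 1500 mg/kg rats as orange circles above 150 mg/kg rats as blue squares and a bar at each group's mean. The 4 and 4 rats do not overlap in any of the 24 genes, by the rule that chose them, and the 1500 mg/kg rats spread more in the 12 higher genes (SD 0.63 to 1.0) than in the 12 lower ones (SD 0.097 to 0.56).

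Il1r2, Anxa1, Tlr2, Slpi, Cebpd and Gng10 were also among the 12 highest genes, and Il1r2 and Cebpd of them were on the list of inflammatory signalling. Il1r2, a decoy receptor that binds interleukin-1 without signalling, stood at 1.80, 1.06, 2.86 and 2.43 in 1500 mg/kg rats, against 0.04, -0.11, -0.04 and 0.08 in 150 mg/kg rats (difference 2.05, SE 0.29; 4.13-fold; limma adjusted p = 9.21e-05). Anxa1, an anti-inflammatory phospholipid-binding protein, stood at 1.86, 0.49, 2.88 and 2.16 in 1500 mg/kg rats, against -0.09, 0.08, -0.18 and -0.19 in 150 mg/kg rats. Rat 3624 of 1500 mg/kg lay nearest to the 150 mg/kg rats, and the difference was 1.94 (SE 0.34). Tlr2, a receptor for bacterial lipoproteins, stood at 1.30, 0.69, 2.54 and 2.302 in 1500 mg/kg rats, against 0.09, -0.04, -0.18 and -0.13 in 150 mg/kg rats (difference 1.77, SE 0.35). Slpi, a secreted inhibitor of leukocyte proteases, differed by 1.53 (SE 0.24), and Cebpd, a transcription factor of the acute phase, by 1.32 (SE 0.34; limma adjusted p = 0.0331). Gng10, a gamma subunit of heterotrimeric G proteins, stood at 1.04, 0.12, 1.98 and 2.17 in 1500 mg/kg rats, against -0.09, 0.03, -0.06 and -0.22 in 150 mg/kg rats.

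With the 12 rats of 24 h alone, Mmp8, Anxa1, Tlr2, Slpi, Gng10, Alox5, Cebpd, Sod2 and Ccl2 no longer passed (limma adjusted p from 0.0599 for Mmp8 to 0.547 for Ccl2), while Serpinb1a, S100a9, S100a8, Tf and Il1r2 did. Cebpd and Gng10 also lost their calls with scaled arrays and without rat 3625, 3626 or 3620, and Cebpd with the Cy5 arrays alone and without rat 3618 or 3619. The list of inflammatory signalling held 45 measured genes, of which Il1r2, Ccl2, Cebpd and Sod2 rose (8.89%) and 0 fell. Ccl2, a chemokine that draws monocytes, stood at 1.56, -0.22, 3.13 and 0.85 in 1500 mg/kg rats, against -0.30, -0.25, -0.09 and -0.11 in 150 mg/kg rats. The groups overlapped through rat 3624, and Ccl2 passed at a limma adjusted p of 0.0349 but not with the Cy5 arrays alone, or with any of the 4 rats of 150 mg/kg, or with rat 3623 or 3625, left out. Sod2, the manganese superoxide dismutase of mitochondria, differed by 1.27 (SE 0.24), with 0.94, 0.62, 1.795 and 1.62 in 1500 mg/kg rats and 0.21, -0.53, 0.02 and 0.22 in 150 mg/kg rats. The cytokine genes Tnf (-0.0086), Il1b (0.12) and Il6 (-0.13) did not pass. Of 30 genes induced by glucocorticoids, Il1r2, Anxa1 and Cebpd rose (10%) and 0 fell, and the median difference was 0.018.

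Of 32 interferon response genes 3 (9.38%) were called higher and 0 lower. The 3 were Oas1a, Oasl2 and Oasl, of the family of antiviral 2′-5′ oligoadenylate synthetases. Oas1b of that family did not rise (0.01, limma adjusted p = 0.988). Of the 32 genes 21 were above 0 and 11 below it. Oas1a stood at 0.48, 0.69, 1.76 and 1.38 in 1500 mg/kg rats, against 0.10, -0.23, -0.12 and -0.37 in 150 mg/kg rats (difference 1.23, SE 0.22; limma adjusted p = 0.00136). Oasl2 differed by 0.69 (SE 0.16) and Oasl by 0.19 (SE 0.04). Ifit3 had the largest difference of the list, 1.29, and did not pass (adjusted p = 0.103). With the 12 rats of 24 h alone Oas1a, Oasl and Oasl2 no longer passed (limma adjusted p = 0.102, 0.351 and 0.237). Oasl also lost its call with the Cy3 arrays alone, and Oasl2 with either dye orientation alone, with scaled arrays and without any of rats 3625, 3626, 3618 and 3619.

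Of 55 measured transcripts best known from liver, 4 rose in the blood of 1500 mg/kg rats (7.27%) and 0 fell, with a median difference of 0.081. Tf codes for transferrin, the iron carrier of plasma, and stood at 2.18, 1.504, 3.67 and 2.43 in 1500 mg/kg rats, against 0.28, -0.03, -0.13 and -0.25 in 150 mg/kg rats. The groups were more than 1 log2 unit apart at their nearest rats, and the difference was 2.48 (SE 0.33; 5.57-fold; limma adjusted p = 5.58e-05). C3, the central complement component, differed by 1.23 (SE 0.23), and Ahsg, the plasma glycoprotein fetuin-A, by 0.13 (SE 0.03). Rbp4, the plasma carrier of retinol, stood at 2.38, 0.45, 1.64 and 1.10 in 1500 mg/kg rats, against 0.12, 0.48, 0.09 and -0.31 in 150 mg/kg rats, so that rat 3624 overlapped with rat 3618. The Rbp4 difference was 1.30 (SE 0.28; limma adjusted p = 0.00701), but 2.13 on arrays with the treated rat in Cy5 and 0.47 on those with it in Cy3, where it did not pass (adjusted p = 0.558).

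C3, Ahsg and Rbp4 no longer passed with the 12 rats of 24 h alone (limma adjusted p = 0.0676, 0.455 and 0.287), nor did C3 and Rbp4 with arrays scaled to the same spread, or Ahsg with either dye orientation alone or without any of rats 3623, 3626, 3617 and 3618, while Tf kept its call. Of 4 measured hepatocyte markers Ahsg rose, and Apoa1 (-0.04), Fga (0.19) and Ttr (0.37) did not pass. Of 21 genes of iron and haem handling, Tf rose, and Blvra and Blvrb, the biliverdin reductases that make bilirubin, fell. Blvra stood at -0.88, -0.79, -0.55 and -0.55 in 1500 mg/kg rats, against 0.07, 0.21, 0.08 and -0.03 in 150 mg/kg rats (difference -0.77, SE 0.11), and Blvrb differed by -0.92 (SE 0.17), though not past the threshold with the 12 rats of 24 h or the Cy5 arrays alone.

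The 12 lowest genes fell by a more even amount in the 4 rats of 1500 mg/kg. Cmas makes the activated form of sialic acid, and stood at -1.94, -1.81, -2.13 and -2.42 in 1500 mg/kg rats, against 0.21, 0.62, -0.41 and -0.10 in 150 mg/kg rats. The groups lay over 1 log2 unit apart, the difference was -2.16 (SE 0.24; 4.46-fold lower; limma adjusted p = 2.91e-06), and its 2 probes gave -2.01 and -2.302. Kpna1, an importin that carries proteins into the nucleus, stood at -2.02, -2.27, -1.58 and -1.87 in 1500 mg/kg rats, against 0.07, 0.23, -0.28 and -0.22 in 150 mg/kg rats (difference -1.89, SE 0.19; 3.70-fold lower). Ranbp10, which binds the GTPase Ran and tubulin, stood at -1.89, -1.48, -1.95 and -1.88 in 1500 mg/kg rats, against -0.05, -0.14, -0.38 and -0.71 in 150 mg/kg rats. In Ranbp10 all 8 rats were below the pool, and the difference was -1.48 (SE 0.23).

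Selenbp1, a selenium-binding protein that oxidises methanethiol, had the smallest adjusted p of the comparison. It stood at -1.32, -1.27, -1.48 and -1.43 in 1500 mg/kg rats, against 0.26, 0.54, -0.28 and 0.12 in 150 mg/kg rats. The SD was 0.097 over the 1500 mg/kg rats and 0.34 over the 150 mg/kg rats (n = 4 each), and the difference was -1.53 (SE 0.14; 2.89-fold lower; limma adjusted p = 3.06e-07). Clec4a3, a lectin receptor of myeloid cells, spread more, with -1.37, -2.001, -0.74 and -1.05 in 1500 mg/kg rats, against 0.20, 0.25, 0.21 and -0.06 in 150 mg/kg rats. Here rat 3624 was the lowest and rat 3625 the least changed of the 1500 mg/kg rats.

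The remaining leading falls were those of Memo1 (-1.42), a regulator of cell motility, Eef1e1 (-1.42), a scaffold of the tRNA synthetase complex, Ddb1 (-1.25), an adaptor of a ubiquitin ligase in DNA repair, Enpp1 (-1.23), an enzyme that makes pyrophosphate, Slc16a10 (-1.23), a transporter of aromatic amino acids, and Cat. Enpp1 stood at -1.02, -1.02, -1.30 and -1.37 in 1500 mg/kg rats, against 0.24, 0.29, -0.10 and -0.20 in 150 mg/kg rats (limma adjusted p = 0.0283). Its groups lay apart, yet it no longer passed with any of 6 of the 8 rats left out, rats 3624 and 3620 being the others, or with the Cy3 arrays alone (adjusted p = 0.389). Enpp1 and Slc16a10 no longer passed with the 12 rats of 24 h alone (adjusted p = 0.0873 and 0.247), and these 2 genes and Clec4a3 did not with scaled arrays (0.0754, 0.0837 and 0.0959).

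Of 43 genes on the Nrf2 and oxidative stress list, 2 rose and 5 fell (16.3%), with a median difference of 0.017. Gpx1, the main glutathione peroxidase of red cells, stood at -1.71, -1.46, -2.19 and -1.91 in 1500 mg/kg rats, against 0.31, 0.26, -0.35 and 0.06 in 150 mg/kg rats (difference -1.89, SE 0.27; 3.70-fold lower; limma adjusted p = 8.17e-05). Cat, the catalase that breaks down hydrogen peroxide, stood at -1.36, -0.74, -1.65 and -1.42 in 1500 mg/kg rats, against -0.21, 0.22, -0.15 and -0.15 in 150 mg/kg rats (difference -1.22, SE 0.20). Gpx4, a peroxidase of lipid hydroperoxides, Gclm, the regulatory subunit of glutathione synthesis, and Abcc1, an exporter of glutathione conjugates, fell by 0.78, 0.64 and 0.53. The groups did not overlap in Gpx1, Cat and Gclm but overlapped in Gpx4 and Abcc1. Gclm did not pass with the 12 rats of 24 h alone or with scaled arrays.

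Nqo1, the quinone reductase that Nrf2 induces, rose with Sod2. It stood at 0.95, 0.33, 1.32 and 1.40 in 1500 mg/kg rats, against 0.42, -0.27, -0.19 and 0.09 in 150 mg/kg rats, and rat 3624 overlapped with rat 3617 (difference 0.99, SE 0.24; limma adjusted p = 0.0231). The call ended with any of rats 3623, 3625, 3626, 3618 and 3619 left out, with the 12 rats of 24 h alone (adjusted p = 0.382), with the Cy3 arrays alone, with scaled arrays and with the dye profile removed. Nqo1 and Gclm were also the 2 of 23 genes of acetaminophen metabolism that passed, in opposite directions.

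The erythroid list held the most falls of the 28 gene lists. Of 33 measured erythroid genes, 12 fell (36.4%) and 0 rose, with a median difference of -0.28. They were Cat, Rhd, Bpgm, Bnip3l, Blvrb, Epb41, Slc4a1, Hemgn, Tmcc2, Aqp1, Add2 and Gata1, which code for a blood group antigen, the enzyme of 2,3-bisphosphoglycerate, a mitophagy receptor of reticulocytes, membrane skeleton and channel proteins, and the transcription factor of red cell development, among others. Aqp1, the water channel of the red cell membrane, stood at -0.47, -0.46, -0.56 and -0.52 in 1500 mg/kg rats, against -0.12, 0.29, -0.08 and -0.01 in 150 mg/kg rats (difference -0.52, SE 0.08; limma adjusted p = 0.00026). Rhd stood at -0.82, -0.54, -1.34 and -1.19 in 1500 mg/kg rats, against 0.28, 0.09, -0.24 and 0.16 in 150 mg/kg rats (difference -1.05, SE 0.19). Of Cat, Aqp1, Rhd, Bnip3l and Blvrb, only Cat and Aqp1 passed with the 12 rats of 24 h alone, and Bnip3l did not with scaled arrays.

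Slc4a1, the anion exchanger of the red cell membrane, stood at -1.79, -0.47, -0.36 and -0.55 in 1500 mg/kg rats. In 150 mg/kg rats it stood at 0.05, -0.02, -0.15 and -0.12. Rat 3623 lay far below the other rats of its group. The Slc4a1 difference was -0.73 (SE 0.19, limma adjusted p = 0.0393), with -0.30 on the Cy5 arrays and -1.16 on the Cy3 arrays. Of its 32 array values 1 was an exact zero or at a limit. Alas2, the first enzyme of erythroid haem synthesis, differed by 0.12 and did not pass, nor did the haemoglobin chaperone Ahsp (-0.39) or the transferrin receptor Tfrc (-0.09). The list median was -0.27, -0.24, -0.21 and -0.34 in the 1500 mg/kg rats, against 0.05, 0.06, -0.11 and -0.01 in the 150 mg/kg rats, close together within the 1500 mg/kg group and without overlap. Without rat 3623 the median difference was -0.182, and without rat 3620 it was -0.198.

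**Figure D3:**
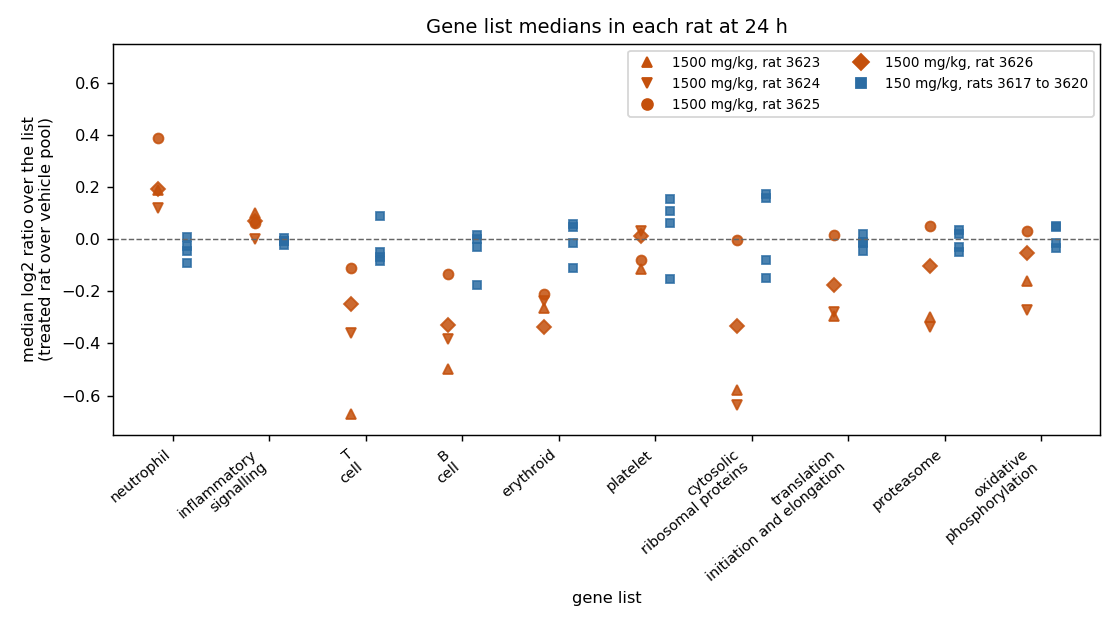
Median log2 ratio to the vehicle pool over the measured genes of 10 lists (vertical axis), in each rat of 1500 mg/kg (orange, left, 1 symbol for each rat) and of 150 mg/kg (blue squares, right). Erythroid medians of the 1500 mg/kg rats lie together between -0.34 and -0.21, while those of T cell and ribosomal protein genes spread, with rat 3625 nearest to 0.

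Median differences of the T and B cell lists were below 0, with few genes past the test. Of 18 T cell genes, Cd6 and Cd7 fell (11.1%) and 0 rose, with a median difference of -0.40. Cd6, a receptor that tunes T cell receptor signals, stood at -1.51, -1.29, -0.53 and -0.73 in 1500 mg/kg rats, against -0.26, -0.02, 0.12 and -0.27 in 150 mg/kg rats (difference -0.91, SE 0.24; limma adjusted p = 0.0396). It did not pass with rat 3623 left out (adjusted p = 0.207), and it lost its call under 12 of 46 alternatives. The 2 probes of Cd7 gave -0.20 and -0.74. Lck, the kinase of the T cell receptor, stood at -1.62, -1.23, -0.16 and -0.58 in 1500 mg/kg rats, against -0.17, -0.35, 0.08 and -0.16 in 150 mg/kg rats, and did not pass (adjusted p = 0.122). Cd5 (-1.10) and Ptprcap (-0.75) did not overlap between the groups and did not pass either. Of the 18 genes 13 were below 0 and 5 above it. Cd4 (0.01), Cd8a (-0.03), Cd8b (0.02) and Cd3e (-0.06) were near 0, so the list did not fall as a whole.

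Of 9 B cell genes, Spib and Ms4a1 fell, with a median difference of -0.35. Spib, a transcription factor of B cells, differed by -0.86 (SE 0.23; limma adjusted p = 0.0454), and the call ended under 24 of 46 alternatives. Ms4a1, the CD20 antigen, differed by -0.52, with -0.98 and -0.05 at its 2 probes. Of 6 MHC class II genes RT1-Da (-0.46) and RT1-Ba (-0.21) fell, and of 18 NK and cytotoxic genes Gzmm (-0.26), a granzyme, fell. With the 12 rats of 24 h alone Cd6, Cd7, Spib, Ms4a1, RT1-Da, RT1-Ba and Gzmm did not pass (limma adjusted p from 0.162 for Cd6 to 0.538 for Cd7), and each also lost its call with 4 or more of the 8 rats left out one at a time.

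Monocyte and macrophage genes moved in both directions, with 2 of 22 higher and 3 lower and a median difference of 0.046, or -0.0073 without rat 3624. Tlr2 and Fcgr1a, a high-affinity receptor for IgG, rose, and Clec4a3, Ctsd and Klf4 fell. Fcgr1a lost its call with the 12 rats of 24 h alone, with scaled arrays, with either dye orientation alone and without rat 3625 or 3626. Ctsd, the aspartic protease of lysosomes, stood at -1.06, -0.84, -1.06 and -1.07 in 1500 mg/kg rats, against 0.30, 0.36, -0.33 and -0.02 in 150 mg/kg rats (difference -1.09, SE 0.15; limma adjusted p = 5.58e-05). The 5 measured monocyte markers Cd14, Csf1r, Lyz2, Cd68 and Ccr2 differed by -0.04 to 0.54, and none passed. On the platelet list 0 of 18 genes passed, with a median difference of -0.0098, Ppbp at -0.45 (adjusted p = 0.336) and Pf4 at 0.17. Of 12 genes of eosinophils, basophils and mast cells 0 passed.

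Genes of protein synthesis and breakdown were lower by their list medians, which rat 3625 of 1500 mg/kg did not share, and few passed. Of 48 initiation and elongation factor genes, Eef1e1, Eif2ak1, Eif4b and Eif3l fell (8.33%) and 0 rose, with a median difference of -0.14. Eif4b, a helper of the mRNA-unwinding helicase, stood at -1.26, -0.81, -0.40 and -0.80 in 1500 mg/kg rats, against 0.05, -0.08, 0.26 and 0.07 in 150 mg/kg rats (difference -0.89, SE 0.18). Eif2ak1 codes for the haem-regulated kinase of red cell precursors and differed by -0.94, and its 2 probes gave -0.0069 and -1.88, so 1 probe carried the call. The 2 probes of Eif3l gave -0.68 and -0.13, neither past the threshold alone, and its call ended with the 12 rats of 24 h, the scaled arrays or the Cy5 arrays alone and with any rat but 3625 left out.

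Of 49 cytosolic ribosomal protein genes 41 were below 0, 7 were lower without overlap between the groups and 0 passed, with a median difference of -0.42. Over all 9653 genes 4619 were below 0 and 387 (4.01%) were lower without overlap. Rpl19 had the smallest limma adjusted p of the 49 genes, 0.0709. Rpl19 stood at -1.28, -1.31, -0.36 and -0.69 in 1500 mg/kg rats, against -0.13, 0.10, 0.19 and -0.28 in 150 mg/kg rats. The median over the list was -0.58, -0.64, -0.0026 and -0.33 in the 1500 mg/kg rats, against -0.15, 0.17, 0.16 and -0.08 in the 150 mg/kg rats, so that rat 3625 lay among the 150 mg/kg rats. Of 40 proteasome genes 1 fell (2.5%, beside 2.14% called over all genes), Psmf1, a proteasome inhibitor (-0.66). Psmf1 did not pass with the 12 rats of 24 h or the Cy5 arrays alone. Nor did it pass without any one of rats 3623, 3626, 3617 and 3618. Of 62 oxidative phosphorylation genes 0 passed. The median differences of the proteasome and oxidative phosphorylation lists were -0.15 and -0.14. Rat 3625 had the strongest neutrophil signal. It stood highest of the 1500 mg/kg rats in the medians of the T cell, B cell, ribosomal, translation, proteasome and oxidative phosphorylation lists. Its translation, proteasome and oxidative phosphorylation medians were above the pool, at 0.016, 0.049 and 0.033. In the proteasome list that was above every 150 mg/kg rat, and in the other lists of these it lay among them.

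Other stress and growth lists gave 1 or 2 genes each, too few to say anything of a list. Called were 5.71% of 35 cell cycle genes, 4.35% of 23 p53 targets and 4% of 25 heat shock genes. So were 3.57% of 28 genes of ER stress and the integrated stress response and 2.7% of 37 apoptosis regulators. Of 11 clock genes 9.09% were called, and over all genes 2.14%. Pttg1 and Ube2c of 35 cell cycle genes fell by 0.52 and 0.61, Ccng1 of 23 p53 targets by 0.62, Asns, the asparagine synthetase of the integrated stress response, by 0.79 and Dnajb6, a co-chaperone of 25 heat shock genes, by 0.69. Asns was even within the higher dose, at -0.71, -0.71, -0.75 and -0.78 in 1500 mg/kg rats, against 0.27, 0.12, -0.24 and 0.04 in 150 mg/kg rats. Bik, a pro-apoptotic member of the Bcl-2 family, rose by 0.59, and Nfil3, a repressor of clock genes, by 0.30, with 0.06 and 0.54 at its 2 probes. Of these genes Asns and Dnajb6 passed with the 12 rats of 24 h alone, and Pttg1, Ube2c, Ccng1, Bik and Nfil3 did not. None of 30 glycolysis and hypoxia genes and none of 44 mitochondrial ribosomal protein genes passed in limma.

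The same pair of doses at 6 and 12 h, in other rats and against other control RNA, differed in fewer genes. At 6 h 4 genes passed (0.0414%), and at 12 h, with 3 rats a group, 0 passed in limma and 665 had an unadjusted p under 0.05. Of the 61 genes higher at 24 h, 55 were above 0 at 6 h and 55 at 12 h, with medians of 0.177 and 0.257 beside 0.754 at 24 h. Of the 146 lower genes, 107 were below 0 at 6 h and 117 at 12 h, with medians of -0.0802 and -0.117 beside -0.65 at 24 h. Over all 9653 genes the sign of 24 h was shared by 62.2% at 6 h and 53.7% at 12 h. The 61 and 146 genes were chosen by their 24 h difference, so their larger medians at 24 h are in part built in.

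Il1r2 passed at 6 h, with a difference of 1.71 (SE 0.29, limma adjusted p = 0.0116). Dgat2, an enzyme of triglyceride synthesis, also passed, at 0.77. The other 2 genes that passed at 6 h were lower. Eef2, the ribosomal translocase, was 1 of them, at -0.64 (SE 0.09, limma adjusted p = 0.00181). Serpinb1a differed by 2.51 at 6 h, 2.06 at 12 h and 4.51 at 24 h. S100a8 differed by 1.82, 0.81 and 3.36 at these times. Alox5 differed by -0.0039 at 6 h, 0.23 at 12 h and 1.35 at 24 h.

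The change of the difference between 6 and 24 h was tested directly, and 24 genes (0.249%) passed, 2 with a higher difference at 24 h (0.0207%) and 22 with a lower one (0.228%). Alox5 was 1 of the 2, with a change of 1.355 (SE 0.28; limma adjusted p = 0.0311). The other was Eef2, at -0.64 at 6 h, where it passed, and -0.02 at 24 h, where it did not (limma adjusted p = 0.982). Selenbp1 differed by 0.23 at 6 h, -0.04 at 12 h and -1.53 at 24 h, a change of -1.76 since 6 h (adjusted p = 2.48e-05) and of -1.49 since 12 h (adjusted p = 0.00232), and it was the 1 gene (0.0104%) that passed between 12 and 24 h. Cmas (-2.10), Gpx1 (-1.94), Kpna1 (-1.67), Ranbp10 (-1.57), Memo1 (-1.39), Eef1e1 (-1.37), Ctsd (-1.28) and Aqp1 (-0.53) also passed for the change since 6 h. The count was between 7 and 15 with any one of 9 rats left out, which were 3592, 3593 and 3594 (1500 mg/kg) and 3587, 3588 and 3590 (150 mg/kg) of 6 h, and 3625 (1500 mg/kg) and 3617 and 3618 (150 mg/kg) of 24 h. For this change since 6 h it was 40 without rat 3631 of 2500 mg/kg at 24 h, 4 with the Cy5 arrays alone, 61 with the Cy3 arrays alone and 6 with scaled arrays. For the change between 12 and 24 h, 12 genes passed without rat 4134, 9 without rat 3631 and at most 5 without any other single rat. The count was 12 with the Cy3 arrays alone and 0 with scaled arrays, where Selenbp1 lost its call.

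Over lists, the erythroid median difference was 0.0012 at 6 h and -0.066 at 12 h, beside -0.28 at 24 h. That of ribosomal protein genes was -0.53 at 6 h, -0.16 at 12 h and -0.42 at 24 h, and that of T cell genes -0.27, -0.30 and -0.40. Erythroid medians were thus near 0 at 6 and 12 h, and ribosomal and T cell medians were below 0 at each time, and these changes of the medians over time were not tested.

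**Figure D4:**
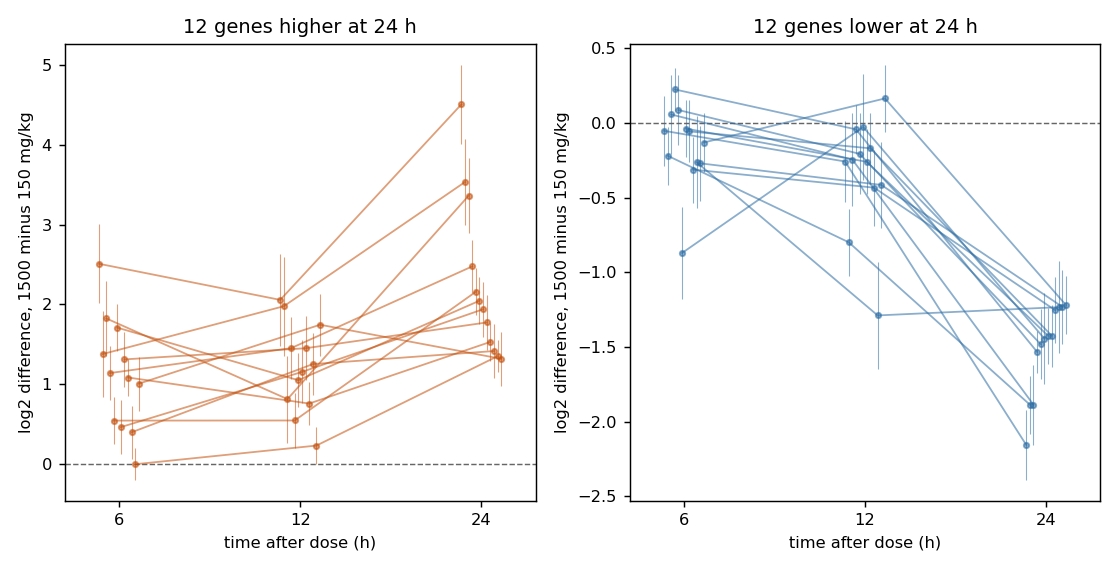
Difference in log2 ratio between 1500 and 150 mg/kg (vertical axis) at 6, 12 and 24 h (horizontal axis, different rats at each time), with bars of 1 SE, for the 12 highest genes of 24 h (left) and the 12 lowest (right). The medians of the 12 higher genes are 1.11, 1.20 and 1.99 and those of the 12 lower ones -0.093, -0.251 and -1.43 at the 3 times. Both sets were chosen by their 24 h difference, so a larger size at 24 h is in part built in.

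Between 2500 and 1500 mg/kg at 24 h, 0 genes passed in limma, and 761 had an unadjusted p under 0.05. With rat 3628 left out 19 genes passed, with rat 4133 left out 10, and with rat 3618 left out 8. Over the 24 leading genes the difference of 2500 minus 1500 mg/kg ran from -0.56 (Cebpd) to 0.34 (Memo1). Its 95% interval was -1.11 to 0.94 for Serpinb1a, -1.40 to 0.81 for S100a9, -0.24 to 0.73 for Cmas and -0.06 to 0.52 for Selenbp1, so differences of up to those sizes are within the error. Over the 3 doses, Serpinb1a averaged -1.06 ± 1.03 after 150 mg/kg, 3.45 ± 0.70 after 1500 mg/kg and 3.37 ± 0.88 after 2500 mg/kg (SD, n = 4 rats each). Gpx1 averaged 0.07 ± 0.30 after 150 mg/kg, -1.82 ± 0.31 after 1500 mg/kg and -1.83 ± 0.62 after 2500 mg/kg. The 2500 mg/kg group shares the 150 mg/kg rats as its comparator, and its values are given side by side for that reason. Against 150 mg/kg, 738 genes (7.65%) passed after 2500 mg/kg.

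Of 6 measures of the arrays, 2 differed between the groups before adjustment. The SD of the log2 ratios over genes was 0.341 (0.268 to 0.407) in 1500 mg/kg rats and 0.215 (0.197 to 0.234) in 150 mg/kg rats (two-sided exact permutation p = 0.0286, the smallest that 70 splits allow; 0.0857 adjusted over the 6). The 2 turned arrays of a rat correlated over genes by -0.276 on average (-0.471 to 0.112) in 1500 mg/kg rats and by -0.704 (-0.772 to -0.595) in 150 mg/kg rats (exact permutation p = 0.0286). Over all probes the correlation was -0.837 to -0.706 in 1500 mg/kg rats and -0.874 to -0.823 in 150 mg/kg rats. A dye effect equally strong on both arrays takes opposite signs after turning. It then lowers this correlation and cancels in the mean of the pair. An unequal dye effect cancels only in part. Its strength differed within a pair by 0.440 on average (0.00451 to 1.07, highest in rat 3624) in 1500 mg/kg rats. In 150 mg/kg rats it differed by 0.143 (0.00653 to 0.277, exact permutation p = 0.343 between the doses). With the dye profile removed 235 genes passed, 196 of them among the 207. Scaling all arrays to the same spread left 121 genes, 37 higher and 84 lower. The part of these measures in the results was not tested. The labels name no batch. Each rat was a separate animal, and the p-values measure the spread between rats.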

How the data were processed

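The values deposited by the authors were log10 ratios of the 2 dyes for 22075 probes on 68 arrays, already processed; their background correction and normalization are not given in the sources used here. Dyes were taken per the labels. Array medians lay between -0.00352 and 0, exact zeros were 2.76% of values and values at the limits of -2 and 2 were 0.493%, and none were left out. Ratios were turned to treated over pool, converted to log2, and each rat's 2 arrays were averaged into 1 replicate. Of the probes 12750 had 1 gene, 12720 were named through Entrez identifiers, and 9653 genes resulted (2266 with over 1 probe).

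A mean for each of 9 dose and time groups was fitted to all 34 rats with limma 3.58.1 in R 4.3.3, with Benjamini-Hochberg adjustment over all genes. The number of arrays limits the precision. The fit was tested on simulated data for 1500 versus 150 mg/kg at 24 h (9653 genes, 200 changed). It recovered 64% at a log2 change of 0.5, 90% at 1 and 100% at 2 and 3, with 3.8% false among its calls. These shares need not hold for a measured gene of wide spread. In the data 53 genes passed with a difference of at least 1 in size, while Cd2 (-1.24), Cd5 (-1.10) and Ifit3 (1.29) did not pass. Leading genes were the 12 highest and 12 lowest called genes whose rats did not overlap. Per list described, at most 4 members of smallest adjusted p were named, as were called members against their list and up to 3 in each direction of changes over time; other genes named were chosen after their values were seen. The members and the 28 lists were chosen with earlier results of these data known. Alternatives changed the rats in the fit, scaling, centring, dye orientation, dye profile, zeros, moderation, rat weights, probe summary and filter, and left out each rat in turn. Promoter windows came from RefSeq (GRCr8).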

Additional observations from a re-analysis of the deposited data

Results flagged for a closer look

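In 9 of 178 groups of 4 rats tested (5.06%), 1 rat stood apart from the other 3 by Dixon's test, and chance alone marks about 1 in 20. Among 1500 mg/kg rats, rat 3624 was at -1.48 for Ranbp10 (others -1.95 to -1.89) and -0.845 for Ctsd (others -1.07 to -1.06), and rat 3625 at -0.121 for RT1-Ba (others -0.256 to -0.237). Among 150 mg/kg rats, rat 3620 was at -0.0581 for Clec4a3 (others 0.203 to 0.254). Rat 3618 was at 0.219 for Cat (others -0.212 to -0.151), -0.0902 for Oasl (others -0.0224 to -0.014) and -0.441 for the platelet gene Gp1bb (others 0.272 to 0.377). Rat 3617 was at -0.233 for Ms4a1 (others 0.165 to 0.215) and -0.403 for Ccng1 (others 0.153 to 0.226).

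The difference between 1500 and 150 mg/kg changed between 6 and 24 h, by a limma test of the change itself, by 1.355 for Alox5 (adjusted p = 0.0311), 0.618 for Eef2 (0.0339), -2.10 for Cmas (0.00305), -1.94 for Gpx1 (0.0176) and -1.76 for Selenbp1 (2.48e-05). Between 12 and 24 h it changed by -1.49 for Selenbp1 (adjusted p = 0.00232).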

How the results depend on the processing

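All 207 genes kept their sign, and of the 59 called genes that were named none reversed, under every alternative run that tested them. The genes were chosen on these same values. Robust moderation or leaving out rats of other groups cannot change the difference. Leaving out or weighting rats of either dose cannot turn the sign of the 179 called genes without overlap. The gene count was 51 (6 higher, 45 lower) with the 12 rats of 24 h alone, 121 (37, 84) with scaled arrays, 119 (36, 83) with Cy5 arrays alone and 1583 (780, 803) with rat weights, which ran from 0.0318 to 6.59. Probe counts, 281 (80 higher, 201 lower) at first, were 46 (4, 42), 161 (42, 119), 159 (46, 113) and 3159 (1673, 1486). Leaving out 1 rat gave 144 (rat 3618) to 317 (rat 3631) genes, 41 (3619) to 116 (3624) higher and 95 (3623) to 227 (3625) lower, and 166 to 402 probes, 47 to 167 higher and 117 to 311 lower. Rat 3631 is of 2500 mg/kg and enters through the shared variance. For 2500 versus 1500 mg/kg the count was 72 with rat weights and 0 to 19 (without rat 3628) with a rat left out. For the change since 6 h, 24 at first, it was 6 with scaled arrays, 4 with Cy5 arrays, 61 with Cy3 arrays, 751 with weights and 7 to 40 without a rat. For the change since 12 h, 1 at first, it was 0 with scaled arrays, 12 with Cy3 arrays, 535 with weights and 1 to 12 (without rat 4134). With Cy3 arrays alone the list medians were -0.037 for monocytes (0.046 at first), 0.137 for interferon (0.054), 0.036 for inflammation (0.088) and 0.034 for liver transcripts (0.081). Leaving out a rat gave -0.0073 (rat 3624) to 0.056 (rat 3617) for monocytes and -0.327 (rat 3624) to -0.182 (rat 3623) for erythroid genes. Apart from fewer rats or arrays entering, the cause was not tested. No paired analysis was possible because each rat number stands in 1 group alone and no number is shared between the doses. Signal over background is not in these values, so the detection of single probes was not analysed here.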

Other observations

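Further genes that passed between 1500 and 150 mg/kg at 24 h, chosen after their values were seen, add to 2 of the groups above. Aqp9, a channel for glycerol and water in neutrophils, stood at 0.54, 0.43, 1.41 and 1.21 in 1500 mg/kg rats, against 0.04, -0.04, -0.07 and -0.00033 in 150 mg/kg rats (difference 0.91, SE 0.14; limma adjusted p = 0.000211). Pglyrp1, a peptidoglycan-binding protein of neutrophil granules, differed by 1.05, Anxa3, an annexin of neutrophils, by 1.12, and Pygl, the glycogen phosphorylase of liver and leukocytes, by 1.20. In Aqp9, Pglyrp1 and Pygl rat 3624 was the lowest and rat 3625 the highest of the 1500 mg/kg rats. In Anxa3 rat 3623 was the lowest. With the 12 rats of 24 h alone 51 of the 207 genes passed, few of them higher. Most of Aqp9, Pglyrp1, Anxa3 and Pygl therefore did not pass there.

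Several genes that fell are known from late red cell maturation or from lysosomes and autophagy. Riok3, a kinase needed for red cell enucleation in mice, stood at -0.90, -0.71, -1.06 and -1.03 in 1500 mg/kg rats, against 0.18, 0.03, -0.31 and -0.08 in 150 mg/kg rats (difference -0.88, SE 0.12; limma adjusted p = 7.19e-05). Mkrn1, a ubiquitin ligase, differed by -1.19, and Foxo3, a transcription factor of red cell maturation, by -0.62. Ctsb, a lysosomal protease, differed by -1.02, Furin, a proprotein convertase, by -1.10, and Gabarapl2, a protein of autophagosomes, by -0.72. Ctsa, another lysosomal protease, was higher by 0.15 (adjusted p = 0.0478), so lysosomal genes did not all move one way.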
